A study of Homo sapiens with 6 samples.

Results

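The ZNF genes of chromosome 19 are described here in Kasumi-1 cells with and without I3. The members were all protein-coding genes of the deposited table that lie on chromosome 19 in GENCODE 29 (GRCh38) and whose symbol is ZNF followed by digits, with at most 1 further letter. The rule was met by 212 of the 29810 genes of the table, and 34 of the 246 genes that fit it in GENCODE 29 were not analysed here. Kasumi-1 is a line of acute myeloid leukemia cells with the fusion gene RUNX1-RUNX1T1, and I3 is a hydroxamic acid that inhibits histone deacetylases. mRNA was sequenced from 3 control libraries, whose labels name no vehicle, and from 3 libraries of cells given 0.25 μM I3, all after 48 h by the labels. The comparison asks which mRNAs differ between cells with and without I3.

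Proteins of the ZNF family hold rows of C2H2 zinc fingers, each of which can contact a few bases of DNA. Many of them also carry a KRAB box, which binds TRIM28 (also called KAP1). TRIM28 in turn brings the histone methyltransferase SETDB1, HP1 proteins and the NuRD complex with its histone deacetylases to the bound site, and the chromatin there is silenced. Many KRAB zinc finger proteins bind transposable elements. The genes lie in clusters that grew by tandem duplication, and chromosome 19 holds the largest number of them in the human genome.

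All 6 libraries came from the same cell line, and the labels do not say whether they came from separate cultures, so the p-values measure only the spread between these libraries. Rebuilt from the FPKM values, the depth was 17500314 to 18193368 reads per library. All 10 markers of myeloid blasts that were looked up (among them MPO, KIT and RUNX1T1) were present in every library, at 1.48 FPKM or more, with a summed level of 8242 to 9070 FPKM in control and 8197 to 8768 FPKM in I3 libraries. Of the markers of other cell types, KRT18 was at 0 in every library, COL1A1 and CD3E stayed at or below 0.179 FPKM, and EPCAM, an epithelial marker, was at 28.2 to 31.6 FPKM. The libraries stood apart by base composition. Over 12939 tested genes, the rank correlation of a library's deviation with the GC content of the gene was -0.31, -0.23 and -0.45 in control 1, I3 1 and I3 3, and 0.45, 0.34 and 0.26 in control 2, control 3 and I3 2.

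Along the chromosome, 205 of the 212 members fell into 11 clusters of 3 or more. A gap of over 1 Mb between neighbouring members began a new cluster. The other 7 lay alone or in pairs (ZNF333, ZNF507, ZNF574 with ZNF526, ZNF541 with ZNF114, and ZNF473). Gaps were measured between the 212 members only, so the 34 genes not analysed could join clusters that are given here as separate. The largest, cluster 11, held 57 members between 55.5 and 58.5 Mb. Cluster 10 held 29 (51.6 to 53.6 Mb), cluster 7 held 26 (36.2 to 37.8 Mb), cluster 3 held 24 (11.5 to 12.6 Mb) and cluster 9 held 22 (43.5 to 45.1 Mb). Clusters 2 (7.1 to 9.8 Mb) and 4 (19.7 to 21.8 Mb) had 15 members each. The remaining clusters were small, with 5 members in cluster 1 (2.8 to 2.9 Mb), 4 in cluster 5 (23.2 to 24.1 Mb), 5 in cluster 6 (34.7 to 35.0 Mb) and 3 in cluster 8 (39.98 to 40.09 Mb).

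A KRAB motif, counted as at least 7 of 9 spaced residues of the KRAB A box in the first 400 residues of the longest annotated protein, was found in 178 members. Of these, 144 matched all 9 positions, while none of the other 34 members matched more than 5. The number of fingers ran from 1 in ZNF428 to 31 in ZNF91, with a median of 13 in members with the KRAB motif and 9 in those without it. GC content of the transcripts ranged from 33.8% in ZNF254 to 71.9% in ZNF414, with a median of 46.1%. Members with the KRAB motif were AT-rich (median GC 45.7%), and those without it were GC-rich (median 61.3%). Neighbours within a cluster had like GC content (rank correlation 0.48 over 194 pairs, which share members).

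The promoter windows show what the members share by position. RefSeq windows (GRCh38.p14, 250 bases before to 50 after the start) were matched for 189 of the 212 members and set beside all 27305 windows, and letters were searched on both strands. CCAAT, the letters bound by NF-Y, were in 53.4% of the members' windows and in 35.7% of all windows. CCGGAAGT, the core bound by ETS factors, was in 23.3% against 4.44% of all, and GGGCGG (the GC box bound by Sp1) was in 66.1% against 44.6%. TATAAA, by contrast, was in 2.12% of the members' windows and in 11.95% of all. An NRF1 site was in 2.12% against 1.36%.

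These letters were spread unevenly over the clusters. CCAAT was in 5 of 5 windows of cluster 1, 13 of 13 of cluster 4, 4 of 4 of cluster 5 and 21 of 23 of cluster 3. It was in 33 of 52 windows of cluster 11, but in 5 of 24 of cluster 7 and 4 of 14 of cluster 2. The stretches below are shown because the letters that follow CCAAT were also shared. They come from the members of clusters 4, 3 and 5 with the highest level in these cells, are written 5′ to 3′ on the strand of the gene, and have CCAAT in capitals.

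ZNF101, cluster 4, plus strand, chr19:19668749-19668793: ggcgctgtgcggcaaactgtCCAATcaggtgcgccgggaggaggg
ZNF430, cluster 4, plus strand, chr19:21020580-21020624: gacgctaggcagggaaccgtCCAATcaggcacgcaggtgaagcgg
ZNF714, cluster 4, plus strand, chr19:21082125-21082169: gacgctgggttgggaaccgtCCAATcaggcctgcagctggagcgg
ZNF708, cluster 4, minus strand, chr19:21329417-21329461: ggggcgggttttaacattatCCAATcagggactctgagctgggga
ZNF700, cluster 3, plus strand, chr19:11925023-11925067: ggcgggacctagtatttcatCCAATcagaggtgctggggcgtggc
ZNF627, cluster 3, plus strand, chr19:11597369-11597413: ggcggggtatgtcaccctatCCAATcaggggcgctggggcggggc
ZNF439, cluster 3, plus strand, chr19:11848674-11848718: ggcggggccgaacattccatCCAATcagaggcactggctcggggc
ZNF254, cluster 5, plus strand, chr19:24087115-24087159: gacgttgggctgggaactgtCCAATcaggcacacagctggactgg
ZNF675, cluster 5, minus strand, chr19:23687211-23687255: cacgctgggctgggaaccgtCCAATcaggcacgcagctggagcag

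All 9 stretches continue as CCAATCAG. These 8 letters, searched for after the stretches had been seen, were in 13 of 13 windows of cluster 4, 4 of 4 of cluster 5, 20 of 23 of cluster 3 and 4 of 5 of cluster 1. In the other clusters they were in 1 window of cluster 9, 1 of cluster 10 and none of clusters 2, 6, 7, 8 and 11. Together, clusters 3, 4 and 5 had them in 37 of 40 windows (92.5%), and all RefSeq windows in 4.16%. The CCAAT letters of cluster 4 were centred at a median of 58.5 bases before the start, and those of cluster 3 at 63.5. Tandem copies share their promoters along with their exons, so windows of 1 cluster are not independent.

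The ETS letters were most frequent in cluster 11, which held no CCAATCAG but did hold CCAAT. They were in 26 of 52 windows of cluster 11, 5 of 18 of cluster 9, 6 of 24 of cluster 7 and 4 of 24 of cluster 10, and in none of clusters 1, 2, 4 and 5. In cluster 11 they were centred at a median of 15 bases before the start, and 26 of 29 matches lay on the strand opposite to the gene. The 5 members of that cluster with the highest level among those with the letters are shown on the strand that reads CCGGAAGT, with these letters in capitals.

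ZNF787, plus strand, chr19:56121277-56121306: gggcgcccaggCCGGAAGTgaccttcccgg
ZNF865, minus strand, chr19:55605636-55605665: cgagggcccgaCCGGAAGTgccgccccctc
ZNF551, minus strand, chr19:57681969-57681998: cgaggaggacgCCGGAAGTtccggcccgtc
ZNF134, minus strand, chr19:57614213-57614242: cgaggaagataCCGGAAGTcccgcccagag
ZNF550, plus strand, chr19:57559842-57559871: cgccagcgaggCCGGAAGTcccgcccctgt

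A match is a run of letters and not a measured binding site. Among tested members, those with the ETS letters had a median level of 2.03 FPKM (37 members) and those without 1.91 FPKM (103 members).

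**Figure D1:**
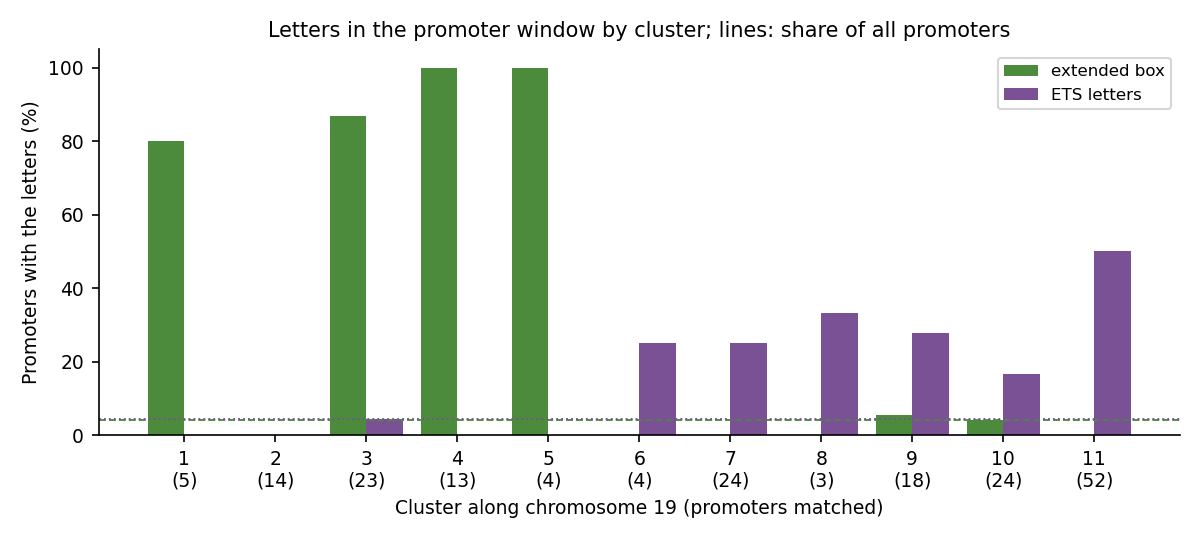
Percent of matched promoter windows (vertical axis) in each of the 11 clusters (horizontal axis, number of windows in brackets) that hold the 8 letters extending CCAAT (green bars) or the 8 ETS letters (purple bars). The dashed and dotted lines mark the share of all 27305 windows (4.16% and 4.44%); green bars stand high in clusters 1, 3, 4 and 5, and the tallest purple bar is cluster 11 at 50%.

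Kasumi-1 cells expressed most of the members at a low level. The mean FPKM (fragments per kilobase of exon, scaled to the size of the library, so that genes can be compared) over the 6 libraries was at least 0.5 in 153 of 212 members, and only these were tested. A further 22 lay between 0.1 and 0.5 FPKM and 37 below 0.1. Those 37 included 4 members at 0 in every library, ZNF560, ZNF85, ZNF285 and ZNF816, named after their values were seen. At these depths a count of 0 allows up to 3 reads per library. Just above the limit of 0.5 were ZNF345 (0.507) and ZNF284 (0.509), and just below it were ZNF491 (0.494) and ZNF91 (0.461).

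Among the tested members, 26 were at 0.5 to 1 FPKM, 106 at 1 to 5 and 21 at 5 or more. ZNF146, which consists of little else than its fingers, was far above the rest, at 42.8, 34.2 and 36.5 FPKM in control and 39.4, 37.3 and 43.0 in I3 libraries. Its exons overlap ZNF565 on the opposite strand. ZNF581 came next at 22.6, 25.99 and 26.4 FPKM in control and 19.8, 24.7 and 20.8 in I3 libraries, but shares 12.9% of its exon sequence with its neighbour ZNF580. ZNF317, ZNF574, ZNF787 and ZNF428 followed with mean levels of 14.6, 14.4, 13.4 and 10.9 FPKM, and the ranges of ZNF317, ZNF574 and ZNF787 overlapped. The 10 highest ended with ZNF121 (9.57), ZNF266 (8.87), ZNF865 (8.34) and ZNF480 (7.65). All 10 had control and I3 ranges that overlapped.

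Members without the KRAB motif were the more abundant. Their median level was 3.79 FPKM and 91.2% of them were tested, against 1.13 FPKM and 68.5% of the members with the motif. Of the 21 members at 5 FPKM or more, 14 lacked the motif, although they made up only 34 of 212. The 7 with it were ZNF317, ZNF266, ZNF480, ZNF700, ZNF627, ZNF551 and ZNF766. Level rose with GC content over the 212 members (rank correlation 0.29, a description, since neighbouring members share sequence). The members were also divided by GC content into 4 groups of 53. In GC group 4 (49.6 to 71.9%) the median level was 3.195 FPKM, and in groups 1 to 3 it was 0.967, 1.03 and 1.11 FPKM. Within group 4 the members without the motif had a median of 4.57 FPKM (24 members) and those with it 2.11 FPKM (29 members). The same order held in group 1, with the lowest GC content (33.8 to 43.1%), at 3.57 FPKM (7 members) and 0.856 FPKM (46 members).

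The clusters differed in how many members were expressed. In cluster 11, 52 of 57 members reached 0.5 FPKM and the median was 2.07 FPKM, with ZNF581 at the top. In cluster 10, by contrast, 11 of 29 reached it, the median was 0.165 FPKM and 12 lay below 0.1, although ZNF480 in the same cluster was at 7.52 ± 1.17 FPKM in control and 7.79 ± 0.892 in I3 libraries (SD, n = 3). Cluster 4 was similarly low, with 7 of 15 members tested and a median of 0.270 FPKM, and ZNF101 led it at 3.59 ± 0.228 and 3.98 ± 0.303 FPKM. Members of cluster 4 that held CCAATCAG therefore ran from 0 (ZNF85) to 3.79 FPKM (ZNF101).

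The other clusters lay between. Their median levels were 1.56 FPKM in cluster 1 (led by ZNF77 at 3.30), 1.19 in cluster 2 (ZNF317), 0.909 in cluster 3 (ZNF700 at 6.72), 1.46 in cluster 5 (ZNF254 at 2.65) and 1.48 in cluster 6 (ZNF792 at 3.47). Clusters 7, 8 and 9 had medians of 1.04, 1.71 and 1.02 FPKM and were led by ZNF146, ZNF780B (2.18) and ZNF428. Within clusters, neighbouring members had related levels (rank correlation of log2 levels 0.31 over 194 pairs), yet the median difference between neighbours was 0.87 on the log2 scale, and in 56 of the 194 pairs only 1 of the neighbours reached 0.5 FPKM.

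**Figure D2:**
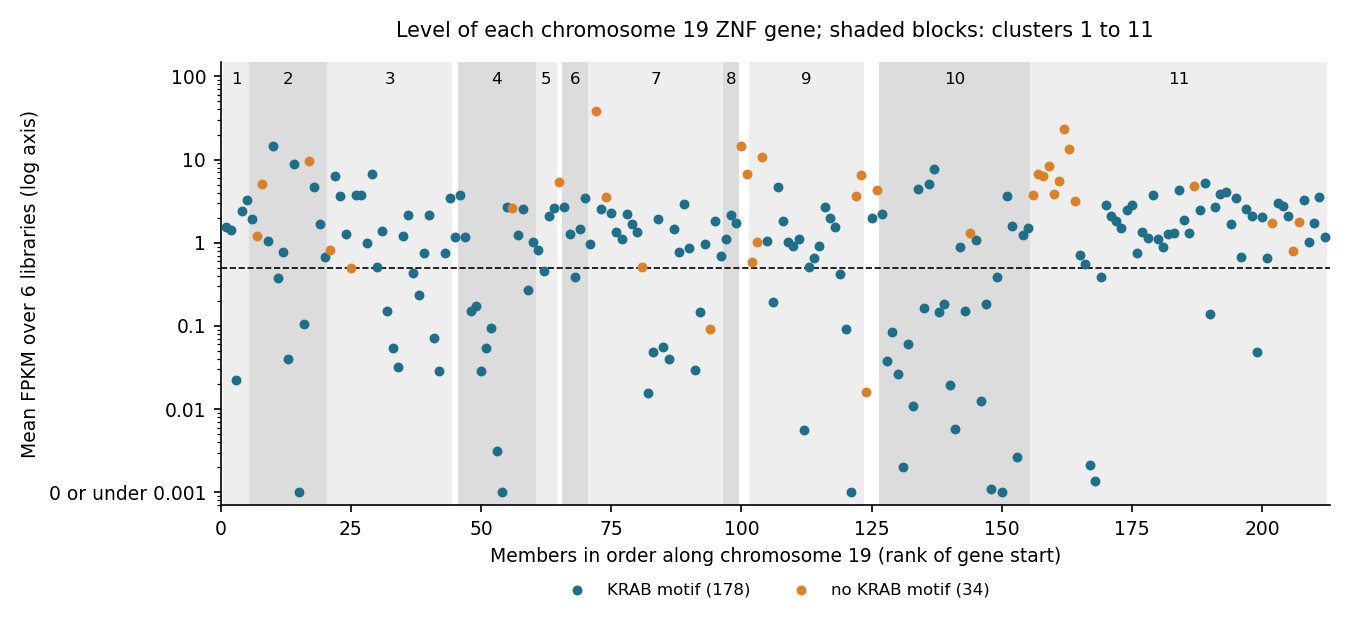
Mean FPKM over the 6 libraries (vertical axis, log scale, members at 0 drawn at 0.001) of the 212 members in order along chromosome 19 (horizontal axis), with clusters 1 to 11 shaded and numbered and the limit of 0.5 FPKM dashed. Members without the KRAB motif (orange) hold most of the highest points, cluster 10 has the most points under 0.1 FPKM (12), and cluster 11 has 52 of 57 points above the limit.

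Sequence shared with other annotated genes limits these levels. Stretches of 100 bases that also occur in transcripts of another gene covered none of the exons of 120 members, over 10% in 34 and over 40% in 11. Exons of 71 members overlap another gene on the same strand and those of 68 a gene on the opposite strand. Every member with over 40% shared also overlaps another gene on the same strand. A shared stretch can therefore be the same exons annotated to another gene. The sources used here do not give how reads in such stretches were assigned or whether strand was used. ZNF320 and ZNF468 in cluster 10, whose exons overlap on the same strand, illustrate this. ZNF320 shares 71.6% of its exon sequence and was at 0 in 5 libraries and at 0.0066 FPKM in I3 3, while ZNF468 shares 52.0% and was at 0.193 ± 0.049 FPKM in control and 0.173 ± 0.062 in I3 libraries (SD, n = 3). Their coding fingers do differ, as does ZNF417 from ZNF587, a pair in cluster 11 known to repress HERV-K proviruses. The sequences show the finger with the median number of differences in each pair, on the coding strand, with differing bases in capitals.

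ZNF320, finger 6, minus strand, chr19:52881136-52881219: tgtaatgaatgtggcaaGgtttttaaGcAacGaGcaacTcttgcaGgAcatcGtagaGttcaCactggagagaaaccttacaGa
ZNF468, finger 5, minus strand, chr19:52841142-52841225: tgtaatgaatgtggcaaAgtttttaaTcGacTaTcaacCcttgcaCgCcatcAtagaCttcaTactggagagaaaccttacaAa
ZNF417, finger 8, minus strand, chr19:57908883-57908966: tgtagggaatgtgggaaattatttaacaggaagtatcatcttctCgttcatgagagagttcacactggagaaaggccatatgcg
ZNF587, finger 9, plus strand, chr19:57859724-57859807: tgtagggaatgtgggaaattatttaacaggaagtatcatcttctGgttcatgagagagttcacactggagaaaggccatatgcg

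The fingers of ZNF320 and ZNF468 differ at 12 of 84 bases. Those of ZNF417 and ZNF587 differ at 1 of 84, and 4 of the 11 fingers compared in that pair are the same in both genes. All 4 come from GENCODE 29 transcripts (GRCh38).

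I3 changed no member past the thresholds. A gene was called at an adjusted p below 0.05 (limma, Benjamini-Hochberg over all 12960 tested genes) and an absolute log2 difference of 0.58 or more, on the scale log2(FPKM + 0.5), which understates changes of low genes. This called 0 of 153 members and 0% of all tested genes. The largest difference of a member was 0.52 in size, and the smallest adjusted p was 0.812. At an unadjusted p below 0.05, 4 members were higher with I3 (2.61%, all tested genes 2.08%) and 0 were lower (all tested genes 2.85%). voom on the rebuilt reads also called 0 members and had 4 of 173 higher and 5 lower (all genes 2.13% and 2.73%). These counts moved with single libraries. Without control 1, 9 of 150 were higher and 1 lower, and so were 7.29% and 3.69% of all genes tested then. Without control 2 it was 2 and 0 (all genes 1.69% and 1.86%), and without control 3 it was 3 and 2 (1.599% and 2.24%). Without I3 1 it was 2 and 3 (1.51% and 3.10%), without I3 2 it was 3 and 4 (2.08% and 3.06%), and without I3 3 it was 1 and 1 (1.80% and 1.89%).

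The 95% interval of the difference lay within 0.58 of 0 on either side for 137 of the 153 tested members. It reached a median of 0.30 (log2) to each side of the estimate, with a median SE of 0.13. The tested members had 157 or more rebuilt reads over the 6 libraries, with a median of 1096, and the SD between the 3 libraries of a group was 11.7% of the mean in control and 10.2% in I3 libraries (medians over 153 members). In 13 of these members all I3 libraries were above all control libraries (all tested genes 5.06%), and in 2 they were below (all tested genes 4.64%).

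ZNF749, a KRAB zinc finger gene of cluster 11 (ENSG00000186230, chr19:57435329-57445485, plus strand), had the smallest p. It was at 3.36, 2.94 and 3.43 FPKM in control and 4.13, 4.77 and 3.90 in I3 libraries. Every I3 library was above every control library. The log2 fold change was 0.35 ± 0.10 (SE), with limma p = 0.00923, adjusted p = 0.812 and an exact permutation p of 0.1 (two-sided), the smallest that 3 against 3 allows. In the same cluster, ZNF417 was at 1.75, 2.10 and 1.70 FPKM in control and 2.42, 2.17 and 2.29 in I3 libraries, a log2 fold change of 0.25 ± 0.11 (limma p = 0.047, adjusted p = 0.998, exact permutation p = 0.1). Its groups did not overlap either, but 25.9% of its exon sequence is shared, mostly with ZNF587. ZNF587 itself was at 2.59 ± 0.444 and 2.48 ± 0.105 FPKM (SD, n = 3), and its groups overlapped.

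The other members at a low p with higher values in I3 libraries also carry the KRAB motif. ZNF221 in cluster 9 was at 1.604, 1.55 and 1.77 FPKM in control and 2.07, 2.11 and 1.96 in I3 libraries, so that the groups were apart (log2 fold change 0.25 ± 0.10, limma p = 0.0345, adjusted p = 0.998, exact permutation p = 0.1). ZNF850 in cluster 7, which has 29 fingers, was at 1.63, 1.31 and 1.46 against 1.94, 1.67 and 2.02 FPKM (0.28 ± 0.12, limma p = 0.0499, adjusted p = 0.998, exact permutation p = 0.1). ZNF69 in cluster 3 was at 0.522, 0.939 and 1.01 against 1.21, 1.07 and 1.28 FPKM (0.37 ± 0.18, limma p = 0.085, exact permutation p = 0.1). Its control 1 value lay well under the other control libraries, and leaving it out gave 0.19 on the log2 scale. ZNF700, its neighbour, was at 7.37, 5.43 and 5.70 against 7.78, 7.15 and 6.87 FPKM. There control 1 overlapped the I3 libraries (0.23 ± 0.12, limma p = 0.0867, exact permutation p = 0.3), and the log2 fold change was 0.15 without control 2 and 0.35 without control 1.

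Members with lower values in I3 libraries at the smallest p lacked the KRAB motif and were GC-rich. ZNF579 (GC 61.3%) was at 7.19, 8.44 and 8.17 FPKM in control and 6.20, 7.36 and 3.33 in I3 libraries, with a log2 fold change of -0.52 ± 0.25 (limma p = 0.0697, exact permutation p = 0.2). ZNF296 (67.5%) was at 7.24, 8.34 and 6.72 against 6.79, 6.03 and 4.29 FPKM (-0.37 ± 0.16, limma p = 0.0513, exact permutation p = 0.2). ZNF865 (69.9%) was at 8.82, 10.2 and 8.59 against 8.79, 7.72 and 5.93 FPKM (-0.30 ± 0.14, limma p = 0.0697, exact permutation p = 0.2). In all 3 the groups overlapped and I3 3 was the lowest library. Without I3 3 the log2 fold changes were -0.21, -0.20 and -0.15, and after correction of each library for GC content they were -0.48, -0.24 and -0.11. ZNF414 (71.9%) was at 6.06, 5.91 and 4.79 against 5.07, 4.81 and 4.23 FPKM (-0.22 ± 0.11, limma p = 0.0775, exact permutation p = 0.3), and its log2 fold change was 0.019 after that correction. Among the 23 tested members of GC group 4 without the motif, I3 3 was the lowest library in 11.

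The 2 tested members with all I3 libraries below all control libraries had the KRAB motif. ZNF607 in cluster 7 was at 1.84, 2.03 and 1.95 FPKM in control and 1.61, 1.79 and 1.72 in I3 libraries (-0.15 ± 0.10, limma p = 0.172, exact permutation p = 0.1). ZNF544 in cluster 11 was at 3.05, 2.84 and 2.80 against 2.57, 2.64 and 2.71 FPKM (-0.11 ± 0.079, limma p = 0.196, exact permutation p = 0.1). Neither difference passed the test.

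**Figure D3:**
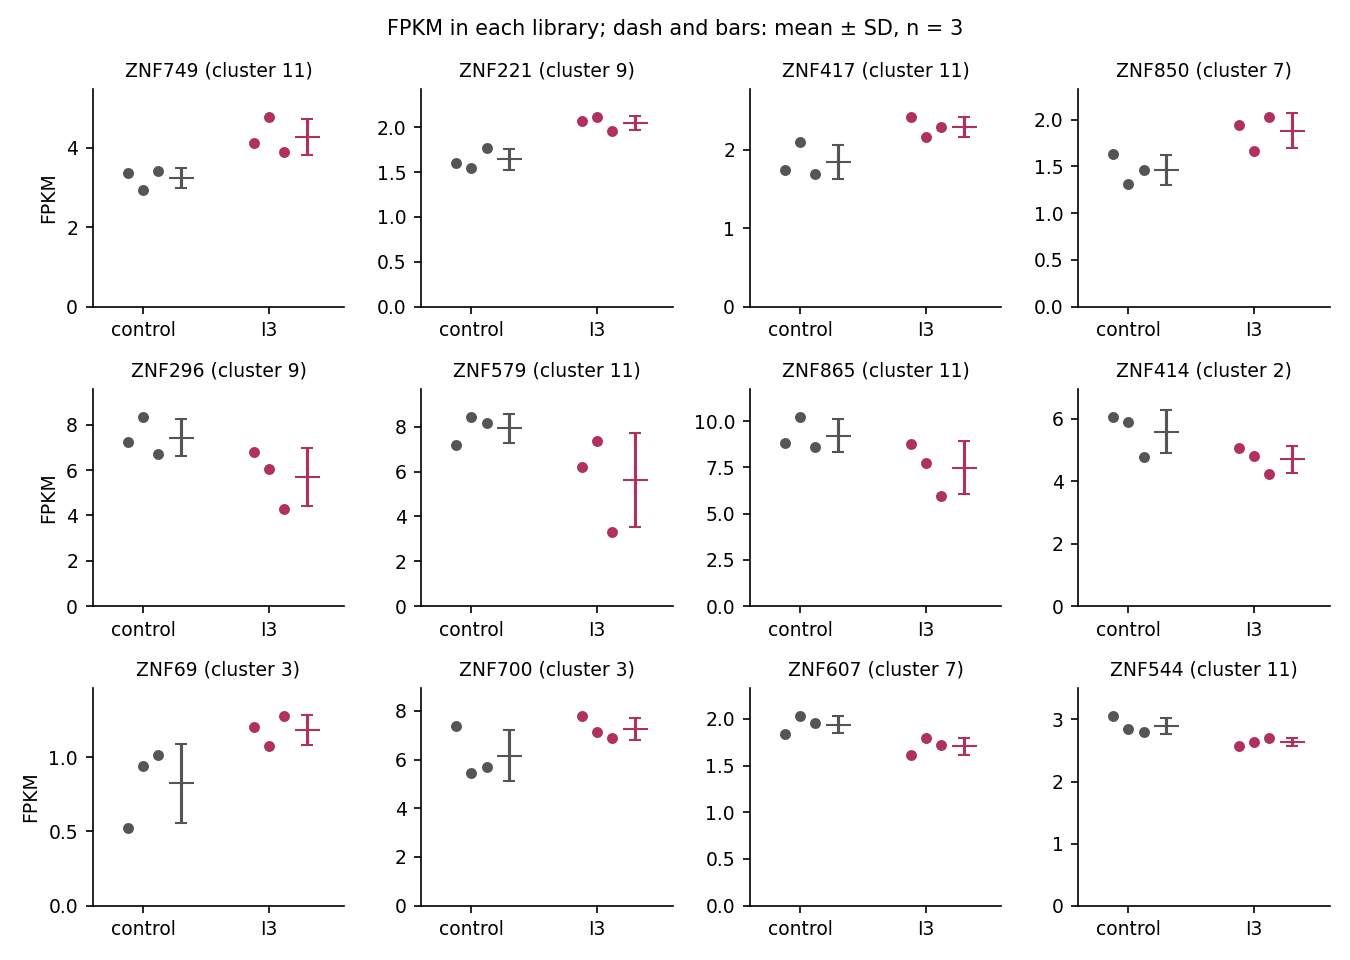
FPKM (vertical axes, starting at 0) in the 3 control (grey) and 3 I3 (red) libraries of the 12 members with the smallest p or the largest non-overlapping differences, with the mean ± SD beside the points. Control and I3 points are apart in ZNF749, ZNF221, ZNF417, ZNF850, ZNF69, ZNF607 and ZNF544 and overlap in the other 5, where I3 3 is the lowest point of ZNF296, ZNF579, ZNF865 and ZNF414.

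Several members have a known role in other cells, and none of them was called. ZNF91 and ZNF93, which repress SVA and LINE-1 retrotransposons, were at 0.469 ± 0.184 and 0.0202 ± 0.0174 FPKM in control and at 0.454 ± 0.0562 and 0.0365 ± 0.0319 in I3 libraries (SD, n = 3), under the limit for testing. ZNF274, which binds the 3′ ends of zinc finger genes and recruits SETDB1, was at 3.12 ± 0.0728 and 2.92 ± 0.272 FPKM. ZNF224, a repressor of the aldolase A gene, was at 0.667 ± 0.0763 and 0.654 ± 0.0393 FPKM. In each of these 4 the groups overlapped.

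Further members of this kind were tested or lay near 0. ZNF675, an inhibitor of TRAF6 signaling, was at 2.10 ± 0.426 FPKM in control and 2.13 ± 0.211 in I3 libraries. ZNF420, a regulator of p53, was at 1.96 ± 0.426 and 1.87 ± 0.325, and ZNF382 and ZNF331, both described as tumor suppressor candidates, were at 1.24 ± 0.132 and 1.40 ± 0.123 FPKM in control and at 1.47 ± 0.198 and 1.63 ± 0.164 in I3 libraries. The groups of these 4 overlapped as well. ZNF568 was near 0, at 0.072, 0.0536 and 0.0545 against 0.0297, 0.0476 and 0.0349 FPKM. Its I3 libraries were all below its control libraries, and at this level it was not tested. ZNF43 was not analysed here.

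Over all 153 tested members, the differences leaned slightly upward. The median log2 fold change was 0.053 and 104 were above 0 (68.0%). Over all tested genes the median was 0.011 and 54.2% were above 0. The 202 tested ZNF genes of other chromosomes had a median of 0.024 with 62.4% above 0, and the 638 other tested protein-coding genes of chromosome 19 had -0.042 with 29.5% above 0. These are descriptions, and no test was made over the members. The 2 gene groups of chromosome 19 differ in base composition, with a median GC content of 46.7% in the tested members and 61.0% in the other genes.

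The lean differed between the GC groups and was largest in group 1 and smallest in group 4. The median log2 fold change was 0.092 in GC group 1 (26 of 32 above 0), 0.048 and 0.063 in groups 2 and 3 (24 of 35 and 28 of 37) and 0.012 in group 4 (26 of 49). Other tested genes in the same GC ranges had medians of 0.060, 0.031, 0.015 and -0.022. Over the 153 members the rank correlation of log2 fold change with GC content was -0.21, and 0.11 once each library had been corrected for GC content over all genes. After that correction the median log2 fold change of the members was 0.033 and that of all tested genes -0.0027. By library, the median deviation of the members from their 6-library mean was 0.019, -0.048 and -0.061 in controls 1 to 3 and 0.015, 0.018 and 0.051 in I3 1 to 3. Between control 1 and the I3 libraries of its own composition class (I3 1 and I3 3) the median difference was 0.0065. Between I3 2 and controls 2 and 3, the other class, it was 0.066. Over all tested genes the same 2 differences were -0.011 and 0.021.

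**Figure D4:**
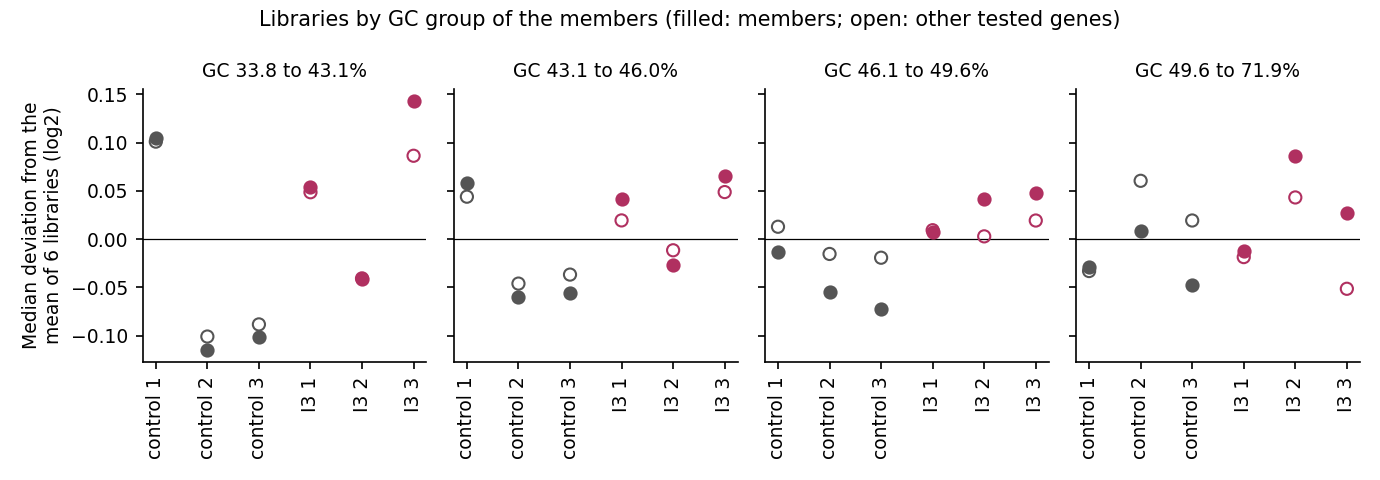
Median deviation from the 6-library mean on the log2 scale (vertical axis) in each library (horizontal axis, control grey, I3 red) for the 4 groups of members by GC content; filled points are tested members and open points other tested genes of the same GC range. In the group with the lowest GC content control 1 (0.10) and I3 3 (0.14) are high and controls 2 and 3 (-0.11 and -0.10) low, and the open points lie close by.

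Members with the KRAB motif had a median log2 fold change of 0.060 (90 of 122 above 0) and those without it -0.012 (14 of 31 above 0). After correction for GC content the medians were 0.032 with and 0.037 without the motif, so the sign for members without the motif reversed. It also reversed with the library class as a term (0.050 with and 0.019 without the motif) and when control 2 (0.052 and 0.0085), I3 1 (0.059 and 0.0045) or I3 3 (0.043 and 0.023) was left out. In GC group 4 20 of 26 tested members with the motif and 6 of 23 without it were above 0, with median GC contents of 52.2% and 64.7%. In GC group 1 it was 20 of 26 and 6 of 6. Members with the motif had medians of 0.077, 0.048, 0.063 and 0.055 in GC groups 1 to 4. Those without it had 0.12 in group 1, 0.11 in group 3 (2 tested members) and -0.056 in group 4.

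By position, the median log2 fold change ran from -0.046 in cluster 6 (4 tested members) to 0.17 in cluster 5 (3 tested members). It was 0.084 in cluster 4, 0.078 in cluster 7, 0.063 in cluster 10, 0.052 in cluster 11 and 0.048 in cluster 2 (in clusters 1, 3, 8 and 9 it was 0.033, 0.032, -0.0001 and 0.011). In cluster 5 the control libraries lay on both sides of the I3 libraries. Control 1 had a median deviation of 0.23, above all I3 libraries (-0.042 to 0.15), and controls 2 and 3 were at -0.15 and -0.14, below them. In 9 of 11 clusters the median deviations of control and I3 libraries overlapped. In clusters 9 and 11 the median deviations of all I3 libraries were higher, in cluster 11 at -0.017, 0.069 and 0.040 against -0.024, -0.020 and -0.061. In cluster 9 they were 0.044, 0.068 and 0.040 against -0.013, -0.063 and -0.021. Yet only 9 of the 17 tested members of cluster 9 had a log2 fold change above 0. The summed level of cluster 9 was 42.8 ± 0.568 FPKM in control and 41.9 ± 3.90 in I3 libraries (SD, n = 3). Within cluster 11 members with the KRAB motif had a median log2 fold change of 0.083 (32 of 39 above 0). Those without it had -0.12 (3 of 13 above 0). Neighbours that were both tested had related log2 fold changes (rank correlation 0.34 over 108 pairs, with 71 on the same side of 0), and neighbours share GC content as given above. The summed level of cluster 11 was 170 ± 4.59 FPKM in control and 166 ± 10.3 in I3 libraries (SD, n = 3). Those of clusters 7 and 10 were 66.5 ± 8.16 and 69.9 ± 5.55 FPKM, and 32.0 ± 1.76 and 32.3 ± 2.08 FPKM, and their groups overlapped too.

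**Figure D5:**
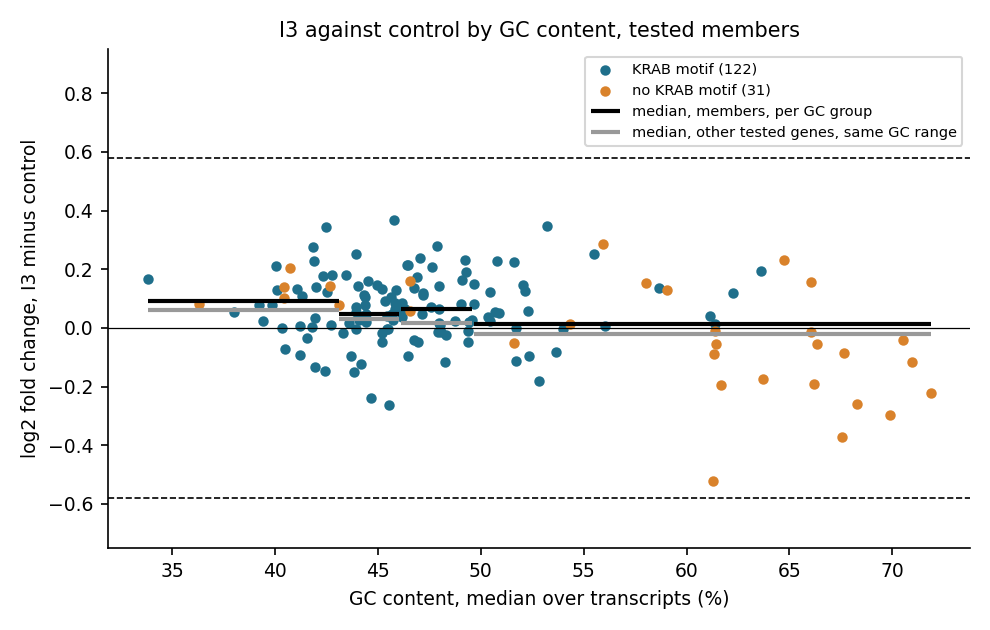
log2 fold change of I3 minus control (vertical axis) against GC content of the transcripts (horizontal axis) for the 153 tested members, blue with and orange without the KRAB motif. Black and grey lines are the medians of members (0.092, 0.048, 0.063 and 0.012) and of other tested genes (0.060, 0.031, 0.015 and -0.022) in each of 4 GC groups; every point lies between the dashed thresholds, 0.58 from 0 on each side.

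A list of 26 corepressor and chromatin genes was looked up. Only some of them belong to the route through which KRAB zinc finger proteins act. All 26 were tested, at mean levels of 4.07 to 180 FPKM. TRIM28 was highest, at 187 ± 14.2 FPKM in control and 172 ± 11.04 in I3 libraries (SD, n = 3), and had the lowest log2 fold change (-0.12). SETDB1, the methyltransferase, was at 6.56 ± 0.605 and 6.54 ± 0.135 FPKM. The deacetylases HDAC1 and HDAC2, targets of inhibitors of this class, were at 44.8 ± 1.74 and 16.8 ± 1.72 FPKM in control and at 45.3 ± 1.77 and 17.1 ± 0.873 in I3 libraries. SUV39H2, another histone methyltransferase, had the highest log2 fold change (0.19). Of the 26 genes 16 were above 0 and 10 below, with a median of 0.016, and the smallest adjusted p (limma) was 0.998. None was at an unadjusted p below 0.05 (all tested genes 2.08% higher and 2.85% lower). No groups were apart (all tested genes 5.06% with I3 above and 4.64% with I3 below).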

How the data were processed

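mRNA-seq of Kasumi-1 cells (3 control and 3 I3 libraries, grouped by the sample labels) was used. The authors prepared stranded polyadenylated mRNA libraries and deposited FPKM values, 1 column per library; the submitters' processing notes name Trimmomatic, HISAT2, Cufflinks, HTSeq and hg38 without roles or versions. The name of the deposited table gives the compound as I13 and the labels give I3. Labels and methods give 48 h, and a figure legend of the study gives another time.

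From these values, log2(FPKM + 0.5) was fitted with limma 3.58.1 (lmFit, eBayes with trend, R 4.3.3) over all 12960 genes with a mean of at least 0.5 FPKM. The authors tested with DESeq and reported genes both lower and higher with I3, at thresholds of the same size. The limma fit called 0 of the 12960 genes. Since FPKM values are not counts, a count model was not the main test. Single members were also tested by exact permutation. Reads rebuilt from FPKM and GENCODE 29 exon lengths were whole within 0.1 read in all 6 libraries for 95.7% of 26519 genes and served voom, an alternative. They gave 17500314 to 18193368 reads per library; their precision covers counting error only. GC content is the median over a gene's transcripts. The GC correction subtracted a lowess curve (span 0.3) from each library. Alternatives were other pseudocounts, minimums and scalings, the GC correction, a replicate block, voom, and leaving out each library. Scripts were tested on simulated data.

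Members and lists were chosen with earlier results of these data known. Members were named by highest level (10), smallest p (10), largest non-overlapping difference in each direction (3 at most), cluster lead or known role; ZNF587, ZNF320, ZNF468, the 4 members at 0 and those shown for their sequences were named after values were seen. Some markers of other cell types are not reported here.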

Additional observations from a re-analysis of the deposited data

How the results depend on the processing

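No member was called under any of the 19 alternatives, and the smallest adjusted p was 0.378 (ZNF700, without control 1). The median log2 fold change of the members stayed above 0, between 0.032 and 0.086, with 61.2% to 71.3% of the members above 0. Counts at an unadjusted p below 0.05 (4 higher, 0 lower) moved. Of members higher there were 2 with a minimum of 1 FPKM, 2 with median-of-ratios scaling, 1 with quantile normalization and 7 without the trend. Of members lower there was 1 with no minimum, 1 with a minimum of 1 FPKM, 1 with median-of-ratios scaling, 2 with quantile normalization, 1 with the GC correction, 1 with the library class as a term (chosen after seeing the data) and 5 with voom. Leaving out 1 library gave 1 to 9 higher and 0 to 4 lower, beside 1.51% to 7.29% and 1.86% to 3.69% of all genes, and the 9 of 150 fell in the setting with 7.29%. The cause was not tested. Of 228 values for the 12 named members, 2 reversed: ZNF414 came to 0.019 with the GC correction, alone or with the block. A gap of 2 Mb gave 6 clusters in place of 11.

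With a replicate block, 3 members were higher and 5 lower at the unadjusted p, 3 and 3 with the GC correction added, and the block changed no call. The deviations of same-numbered libraries had correlations of 0.063, 0.15 and -0.024. The labels do not say whether these libraries were cultured or processed together. The correlations cannot decide it, because the libraries also stood apart by base composition.

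The depth limits the members below 0.5 FPKM, which were not tested. For a tested member the 95% interval reached a median of 0.30 (log2) to each side, which is larger than most differences seen.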

Other observations

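The 13 tested members with every I3 library above every control library (all tested genes 5.06%) were ZNF69, ZNF333, ZNF724, ZNF850, ZNF790, ZNF221, ZNF234, ZNF808, ZNF749, ZNF586, ZNF552, ZNF417 and ZNF446. Of these, 5 lie in cluster 11, which holds 52 of the 153 tested members. The log2 fold changes of the 13 ran from 0.077 (ZNF808) to 0.37 (ZNF69). All 13 carry the KRAB motif, and so do 122 of the 153 tested members. They were picked out by these values, so no test was made.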
